A study of Homo sapiens with 3 samples.

Results

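The peaks described here are the rows of 3 ribosome profiling peak lists whose annotation begins with "non-coding", that is, peaks placed in an exon of a RefSeq transcript with an NR_ accession. The rule found 1176 such rows among 46819 peaks in all: 349 of 11219 peaks in the vector list, 535 of 19920 in the wild-type DDX3X list and 292 of 15680 in the DDX3X G325E list. These rows named 185 NR_ transcripts, which gave 184 different genes or unnamed accessions. Despite the label, most of the rows lay in exons of protein-coding genes: the midpoint of 476 fell in an annotated coding sequence on the strand of the peak, and 184 more fell in another exon of a protein-coding gene. Only 67 rows fell in a lncRNA exon, and no row was assigned to any of 22 listed host genes of small nucleolar RNAs (snoRNAs).

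HEK293T is a human embryonic kidney line. The cells were transfected for 24 h with empty vector, with FLAG-tagged wild-type DDX3X or with FLAG-tagged DDX3X G325E, a substitution found in medulloblastoma, in a background that keeps its own DDX3X. All 3 cultures received harringtonine at 2 µg/ml for 90 s and then cycloheximide at 100 µg/ml per the labels, and each construct was represented by 1 library. There was therefore no replicate check and no test of a construct; the 95% Wilson intervals below cover counting error only, and peaks on 1 gene are not independent of each other. The lists hold peak positions without heights or read counts, so the depth behind a peak is unknown. The libraries also differed in depth: the paper's supplement gives the most non-duplicated mapped reads for wild-type DDX3X, then vector, then G325E. Peaks were called there at a fixed minimum coverage. The part of library depth in differences between the lists was not tested. The labels call the cells neuronal; among 14 neuronal marker genes, TUBB3, NEFL and NEFM were the nearest gene to a peak in each list, the other 11 in none, and none of the 14 had a non-coding row.

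DDX3X belongs to the DEAD-box family of RNA helicases and takes part in translation initiation. In ribosome profiling, RNA outside the ribosome is digested and the protected fragments are sequenced. Harringtonine holds ribosomes that have just begun translation, and cycloheximide halts those that are elongating. An NR_ accession covers several kinds of RNA. Some are splice forms of protein-coding genes that RefSeq files as non-coding, often because a premature stop codon would mark them for decay. Others are pseudogenes, copies of genes that have lost their function, of which the processed ones arose from reverse-transcribed messenger RNA and so lack introns. The rest are long non-coding RNAs (lncRNAs) and short structured RNAs. A peak carries the sequence of a short fragment, so where an NR_ transcript shares that sequence with a messenger RNA, the sequence itself does not tell which of the RNAs the fragment came from.

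The sequences below show these cases, 1 peak for each. They were read from GRCh37, the build of the files, on the strand of the peak, and the capitals mark the 25 bases around the midpoint that were searched for in the genome and in coding transcripts. The first 3 lay in coding sequence although the row named an NR_ transcript. ACTG1 encodes gamma-actin, IP6K2 an inositol hexakisphosphate kinase, and NBDY (the transcript given as LOC550643) a small protein bound to the messenger RNA decapping complex.
IP6K2, chr3:48732667-48732701, minus strand: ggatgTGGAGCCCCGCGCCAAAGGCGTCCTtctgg
ACTG1, chr17:79477828-79477859, minus strand: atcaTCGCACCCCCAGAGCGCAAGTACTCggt
NBDY, chrX:56755821-56755876, plus strand: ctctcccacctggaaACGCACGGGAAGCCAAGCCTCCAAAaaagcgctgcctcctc

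The next 3 lay on pseudogenes and the searched bases were identical to a coding transcript of another gene: RPL19 and RPS26, which encode ribosomal proteins, and PA2G4, which encodes a proliferation-associated RNA-binding protein. The bases of the RPS26P11 peak include the start codon of RPS26. Those of the PA2G4P4 peak occurred at 1 place in the genome, the pseudogene, because in PA2G4 they are split by an intron.
RPL19P12, chr7:102781827-102781860, minus strand: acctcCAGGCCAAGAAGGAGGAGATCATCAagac
RPS26P11, chrX:71264386-71264418, plus strand: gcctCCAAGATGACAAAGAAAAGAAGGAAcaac
PA2G4P4, chr3:156527382-156527409, minus strand: aaAGAAGGCCTCCAAGACTGCAGAGAAt

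The last 4 lay on lncRNAs or on the telomerase RNA, at 1 place in the genome and with no match in a coding transcript within 2 mismatches.
NORAD, chr20:34638545-34638583, minus strand: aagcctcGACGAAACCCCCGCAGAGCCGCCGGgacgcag
MALAT1, chr11:65266724-65266757, plus strand: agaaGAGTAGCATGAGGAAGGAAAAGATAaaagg
ZNF503-AS2, chr10:77167176-77167223, plus strand: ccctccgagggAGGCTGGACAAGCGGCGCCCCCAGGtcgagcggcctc
TERC, chr3:169482533-169482557, minus strand: GCCACCGCGAAGAGTTGGGCTCTGT

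Non-coding rows made up 3.11% of the vector list (95% interval 2.81 to 3.45), 2.69% of the wild-type DDX3X list (2.47 to 2.92) and 1.86% of the DDX3X G325E list (1.66 to 2.09). The G325E interval lay below the others, whereas those of vector and wild-type DDX3X overlapped. By the class of the gene named, protein-coding genes held 529 rows of 87 genes, pseudogenes 407 rows of 50 genes, lncRNAs 147 rows of 34 genes, accessions without a symbol 89 rows of 12 transcripts, and TERC 4 rows. The protein-coding class had nearly the same share in each list, 45.6% of vector, 44.7% of wild-type DDX3X and 44.9% of G325E rows. Pseudogenes held 33.0% of vector rows, 37.9% of wild-type DDX3X rows and 30.5% of G325E rows, and lncRNAs 13.2%, 9.91% and 16.4%. For both classes the intervals of the 3 lists overlapped, for lncRNAs only narrowly between wild-type DDX3X (7.65 to 12.7) and G325E (12.6 to 21.1).

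**Figure D1:**
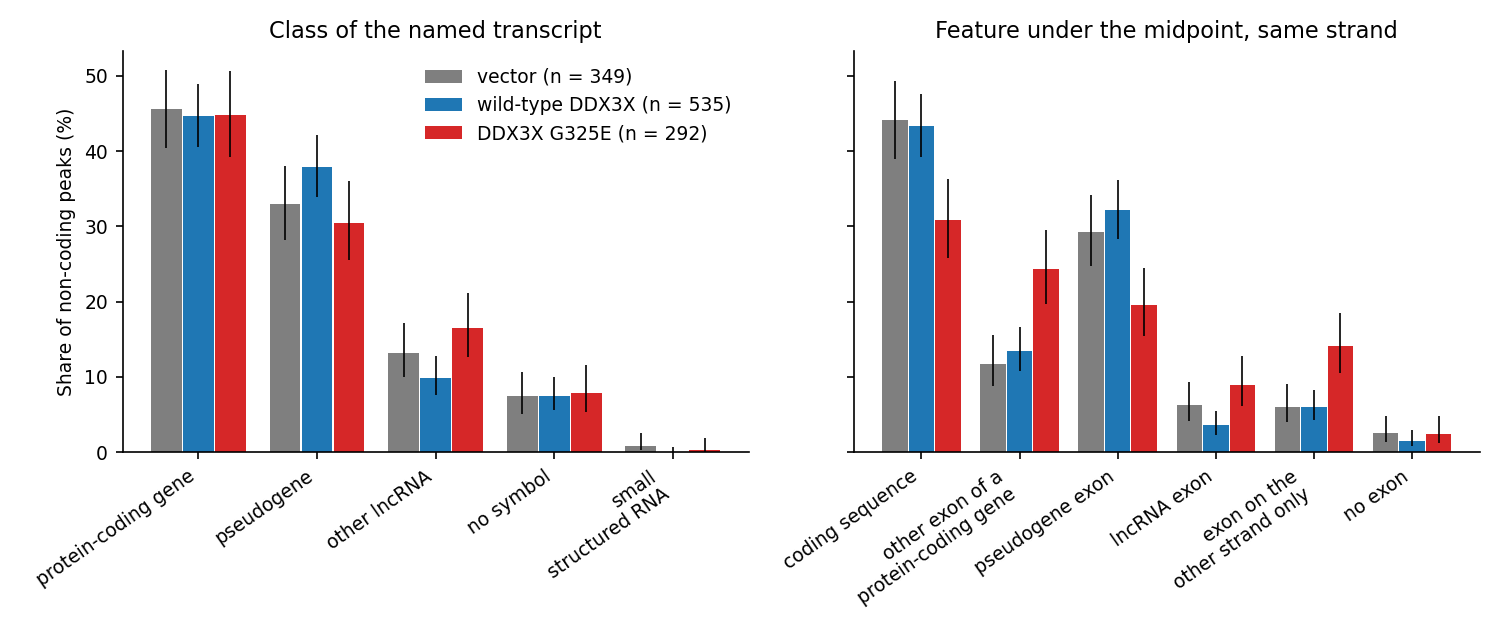
Share of the non-coding peaks of each list (%, bars, with 95% Wilson intervals) by the class of the transcript the row names (left) and by the GENCODE feature under the midpoint on the strand of the peak (right). The protein-coding class had nearly the same share in each list, and the intervals of the other classes overlapped, for lncRNAs only narrowly. Coding sequence held 44.1% of vector, 43.4% of wild-type DDX3X and 30.8% of G325E rows.

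The features under the peaks differed more between lists than the classes did. Coding sequence held 44.1% of vector rows (39.01 to 49.4), 43.4% of wild-type DDX3X rows (39.2 to 47.6) and 30.8% of G325E rows (25.8 to 36.3). Exon sequence of protein-coding genes outside annotated coding sequence held 11.7% (8.78 to 15.5), 13.5% (10.8 to 16.6) and 24.3% (19.7 to 29.5). Among all peaks, coding sequence held 61.5%, 60.5% and 43.8%, so the lower share in G325E was also seen outside the non-coding rows. A pseudogene exon lay under 29.2%, 32.1% and 19.5% of the non-coding rows, against 2.60%, 2.22% and 0.842% of all peaks. Rows for which GENCODE had an exon on the opposite strand only made up 6.02%, 5.98% and 14.0%, against 5.60%, 6.56% and 9.29% of all peaks.

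Of the 529 rows of protein-coding genes, 326 (61.6%, 57.4 to 65.7) had their midpoint in coding sequence and 139 in another exon of a protein-coding gene. A further 54 had an exon on the other strand only, 9 lay in no exon and 1 in a lncRNA exon; the searched bases of 489 occurred at 1 place in the genome. ACTG1 had the most rows of any gene, 15 in each list, over all 7 exons of its NR_ form, and 41 of the 45 were in coding sequence. They formed 16 stretches of overlapping peaks, 11 of them present in all 3 lists. IP6K2 had 5 rows in each list, all in exon 2 of 4 and all in coding sequence.

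Other protein-coding genes differed in number between lists. CCT3, a subunit of the TRiC chaperonin that folds actin and tubulin, had 12 vector rows, 19 wild-type DDX3X rows and 2 G325E rows. DCTN1, the largest subunit of dynactin, had 15 wild-type DDX3X rows, 5 G325E rows and no vector row, all 20 in coding sequence. RBM39, a splicing factor, had 4, 12 and 7 rows in vector, wild-type DDX3X and G325E, and SLC25A1, the mitochondrial citrate carrier, had 9, 11 and 4. The vector and wild-type DDX3X lists number their peaks in genomic order and skip some numbers, and no row of CCT3 or DCTN1 lay in such a stretch. RBM39 had 3 rows where the wild-type DDX3X list skips numbers and 3 where the vector list does, and SLC25A1 had 2 where the wild-type DDX3X list does. FAM193B differed in another way: 11 of its 19 rows (9 vector, 5 wild-type DDX3X, 5 G325E in all) lay on the strand opposite to the gene, all in 1 exon.

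**Figure D2:**
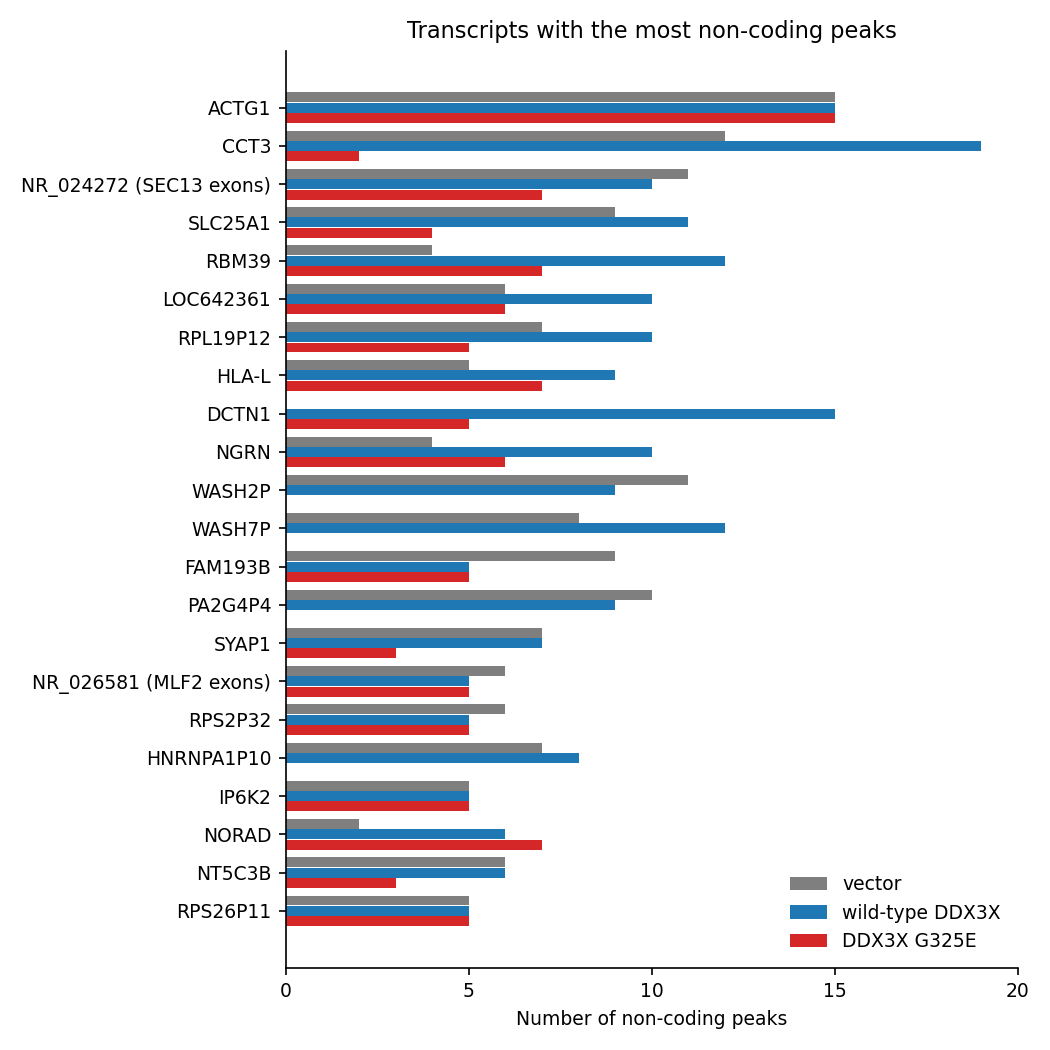
Number of non-coding peaks (horizontal axis) in each list for the 22 transcripts with the most such peaks over the 3 lists. ACTG1 had 15 in each list, CCT3 had 2 in the G325E list against 12 and 19, and WASH2P, WASH7P, PA2G4P4 and HNRNPA1P10 had none in the G325E list.

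Of the 89 rows of the 12 accessions without a symbol, 75 (84.3%, 75.3 to 90.4) lay in coding sequence, a larger share than in the protein-coding class. NR_024272 had 11 vector, 10 wild-type DDX3X and 7 G325E rows on exons of SEC13, a coat protein of transport vesicles and the nuclear pore, and NR_026581 had 6, 5 and 5 on MLF2. NR_047688 had 3 rows in each list on RPS3A, a ribosomal protein gene. NR_027063 had 2 vector and 5 wild-type DDX3X rows, of which 5 were in the coding sequence of MTLN and 2 on the opposite strand. MTLN encodes the short mitochondrial peptide mitoregulin and was first filed as a lncRNA. NBDY was a like case: its 3 vector and 2 wild-type DDX3X rows all lay in the coding sequence that GENCODE now gives it, and no G325E row named it.

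Pseudogene rows largely shared their sequence with messenger RNA. The searched 25 bases were identical to a coding transcript of another gene in 261 of 407 rows (64.1%, 59.4 to 68.6). They had 1 or 2 mismatches in 79 and no match in 67. Genes annotated under the peak itself were left out of this search, and only 48 of the 67 lay outside coding sequence. In all, 39 pseudogene rows had their midpoint in annotated coding sequence, and 283 were identical or in coding sequence. By comparison, 15 of the 529 protein-coding rows and 19 of the 147 lncRNA rows had an identical match in a coding transcript of another gene. Only 109 pseudogene rows (26.8%) had bases at 1 place in the genome, against 87.9% of all peaks. Of the 261 identical rows, 251 (96.2%, 93.1 to 97.9) matched the coding part of at least 1 coding transcript, start codon included. That count took in transcripts of the gene under the peak, and a row untranslated in other transcripts still counted as coding. Identical matches made up 69.6% of pseudogene rows in vector (60.6 to 77.2), 66.5% in wild-type DDX3X (59.8 to 72.6) and 51.7% in G325E (41.5 to 61.8). At least 1 such row was found for 42 of the 50 pseudogenes.

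**Figure D3:**
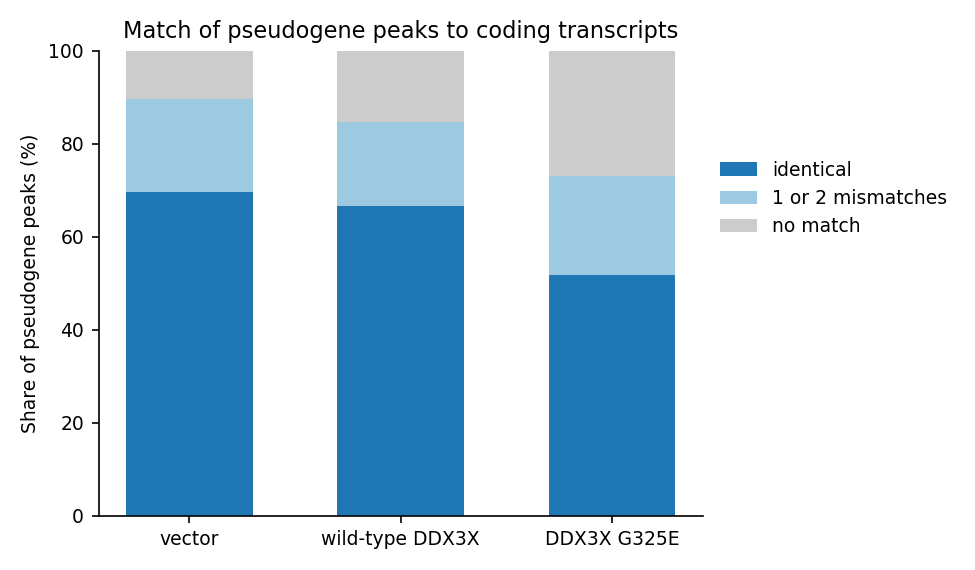
Share of pseudogene peaks (%, stacked bars) in each list by the best match of the 25 bases around the midpoint to a coding transcript of another gene. Identical matches made up 69.6% of vector, 66.5% of wild-type DDX3X and 51.7% of G325E pseudogene peaks.

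Ribosomal protein pseudogenes were among those with the most rows. RPL19P12 had 7 vector, 10 wild-type DDX3X and 5 G325E rows, 17 of the 22 identical to RPL19. RPS2P32 had 6, 5 and 5 rows, 8 of them identical to RPS2, and RPS26P11 had 5 in each list, 12 of the 15 identical to RPS26. The coding genes carried peaks of their own in every list: RPL19 had 10 vector, 9 wild-type DDX3X and 6 G325E peaks and RPS2 had 24, 26 and 14.

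Some pseudogenes had rows in the vector and wild-type DDX3X lists only. WASH2P had 11 and 9, WASH7P 8 and 12 and WASH3P 8 and 6; these belong to the family of WASHC1, which encodes a subunit of the endosomal WASH complex, and 15 of the 20 WASH7P rows were identical to it. WASHC1 itself had 11 vector, 11 wild-type DDX3X and no G325E peaks. PA2G4P4 had 10 vector and 9 wild-type DDX3X rows, 12 of them identical to PA2G4, but PA2G4 had 17 vector, 14 wild-type DDX3X and 9 G325E peaks. RRP7BP had 5 and 7, all 12 identical to RRP7A, a ribosome biogenesis gene that had 6 vector, 9 wild-type DDX3X and 1 G325E peak. In all, 11 of the 42 pseudogenes with a matched coding gene had rows in vector and wild-type DDX3X but not G325E. Among all transcripts, 31.1% of those named in the vector list and 43.6% of those named in the wild-type DDX3X list had no G325E row. The share named in both lists but not in G325E was not counted over all transcripts. The matched gene was the one identical to the most rows, with ties by symbol. It had a vector peak for 8 of the 11, a wild-type DDX3X peak for 8 and a G325E peak for 7. Over all 42 pseudogenes with a matched gene, that gene had a G325E peak for 28. These counts depend on that rule: WASH2P and WASH3P were matched to WASH6P and HNRNPA1P10 to HNRNPA1L3. Neither WASH6P nor HNRNPA1L3 had a peak of its own in any list. HNRNPA1P10 had 7 vector and 8 wild-type DDX3X rows, but all 15 lay in coding sequence annotated to HNRNPA1, the gene of an abundant RNA-binding protein.

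Others were found in 1 list. PIPSL, a fusion retrogene that joins copies of PIP5K1A and PSMD4, had 11 wild-type DDX3X rows and none in the other lists, and 9 of the 11 were identical to PSMD4, a proteasome subunit gene. PDIA3P1 had 9 rows in wild-type DDX3X only, 7 of them identical to PDIA3, a protein disulphide isomerase gene. SMG1P3 had 9 rows in G325E only, and 6 of them lay opposite to the annotated exons. None of the rows of PIPSL, PDIA3P1 and SMG1P3 lay in a stretch where the vector or wild-type DDX3X list skips peak numbers.

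The searched bases of 109 pseudogene rows occurred at 1 place in the genome. In 59 of these rows they had 1 or 2 mismatches to a coding transcript of another gene. Of the 59 rows, 16 were in vector, 28 in wild-type DDX3X and 15 in G325E. Another 40 rows had no match in a coding transcript of another gene. In the remaining 10 the bases were identical to a spliced coding transcript, so they do not tell the pseudogene from the coding gene. In all 10 the match ran across an exon junction of that transcript. Reads that mapped to several places may have been placed at 1 of them; the part of this in the pseudogene rows was not tested.

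In the lncRNA class, 49 of 147 rows (33.3%, 26.2 to 41.3) lay in a lncRNA exon on the strand of the peak. These 49 rows came from 13 transcripts, with 16 in vector, 16 in wild-type DDX3X and 17 in G325E, and 32 of them had bases at 1 place in the genome. The other lncRNA rows lay in coding sequence (36), other exons of protein-coding genes (32), pseudogene exons (11), exons on the other strand (18) or no exon (1). Readthrough transcripts that join neighbouring genes, 7 in number, accounted for 27 rows and all of these lay in exons of protein-coding genes. Of 56 rows on 17 antisense or divergent transcripts, 17 lay in a lncRNA exon. STARD7-AS1, for instance, had 3 vector and 3 G325E rows, all 6 on the strand of STARD7 in an exon outside its coding sequence. The 6 rows of CSTF3-DT lay on RPL29P23 and the 3 of TAPT1-AS1 on RPS21P4, which are ribosomal protein pseudogenes.

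NORAD, a cytoplasmic lncRNA that binds PUMILIO proteins, had 2 vector, 6 wild-type DDX3X and 7 G325E rows between positions 34638324 and 34638697 of chromosome 20. The gene spans 34633540 to 34638940 on the minus strand, so the rows lay near its 5′ end, between 4.61% and 11.2% of its length for the 11 rows on its own strand. The other 4 lay on the opposite strand. MALAT1, a nuclear lncRNA of chromosome 11, had 6 vector rows within its gene (65265111 to 65275544, plus strand), all on its strand and at 1 place in the genome. No wild-type DDX3X or G325E row named MALAT1, and its 6 rows lay in no stretch of skipped numbers. FBXL19-AS1 had 4, 5 and 2 rows in vector, wild-type DDX3X and G325E, 7 of the 11 in its own exon. LOC642361 had the most rows of any lncRNA, 6 vector, 10 wild-type DDX3X and 6 G325E, but only 4 of the 22 had bases at 1 place in the genome.

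ZNF503-AS2 had 7 rows and CRNDE 3, in both cases in G325E only. For ZNF503-AS2 5 of the 7 lay in its own exon and all 7 lay in a stretch where the wild-type DDX3X list skips peak numbers. The wild-type DDX3X list had 9 rows of other annotation classes that named the same transcript. TERC, the RNA component of telomerase, had 3 vector rows, 1 G325E row and no wild-type DDX3X row, and only 1 of the 4 lay on the strand of TERC. Of a list of 35 well-known lncRNAs and structured RNAs, NORAD, MALAT1, CRNDE and TERC were the 4 with a non-coding row.

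None of the 22 listed snoRNA host genes carried a non-coding row in any list, which for the 1176 rows allows a share of up to 0.326% (upper 95% Wilson bound). SNHG9 was the 1 of the 22 named by other rows: 10 vector, 9 wild-type DDX3X and 10 G325E peaks were placed at its start site by the annotation, of which 3, 2 and 3 lay in a lncRNA exon and the others mostly in exons of protein-coding genes. The annotation also has classes for windows around transcript start and end sites, and rows naming small RNAs were found there: 773 such rows named 69 snoRNAs, with 266 in vector, 340 in wild-type DDX3X and 167 in G325E. Of these 773, 606 (78.4%) lay in coding sequence and 60 overlapped an annotated snoRNA. Peaks in such windows are not counted as non-coding rows, so the absence of host genes above holds for that annotation class only. How many rows naming a snoRNA lay in exons of its host gene was not counted. No non-coding row overlapped a snoRNA. Counting instead genes with a snoRNA inside them on the same strand gave 2 vector, 5 wild-type DDX3X and 10 G325E rows, 9 of the 10 on SMG1P3. The other genes were the readthrough transcripts SENP3-EIF4A1, with 1 row in each list, and ATP6V1G2-DDX39B, with 1 vector and 1 wild-type DDX3X row, the protein-coding gene RBMX, with 2 wild-type DDX3X rows, and the pseudogene HMGN2P46, with 1.

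Sharing was measured as peaks that had at least 1 base in common with any peak of another list. Of the 349 vector rows, 272 (77.9%, 73.3 to 82.0) overlapped a wild-type DDX3X peak, against 76.8% of all vector peaks, and 134 (38.4%, 33.4 to 43.6) overlapped a G325E peak, against 48.1%. Of the 535 wild-type DDX3X rows, 259 (48.4%, 44.2 to 52.6) overlapped a vector peak, against 41.6%, and 148 (27.7%, 24.0 to 31.6) a G325E peak, against 34.9%. Of the 292 G325E rows, 145 (49.7%, 43.96 to 55.4) overlapped a vector peak, against 35.4%, and 165 (56.5%, 50.8 to 62.1) a wild-type DDX3X peak, against 47.3%. Relative to all peaks, vector and wild-type DDX3X rows were thus less often found in the G325E list, while G325E rows were more often found in the other lists; the intervals excluded the value for all peaks in these 4 cases and for wild-type DDX3X rows in vector. With peaks whose bases occurred at 1 place in the genome, a setting chosen after seeing the data, the intervals for overlap by G325E contained the value for all such peaks: 43.3% (37.1 to 49.7) against 48.2% for vector rows and 30.3% (25.6 to 35.4) against 34.7% for wild-type DDX3X rows.

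**Figure D4:**
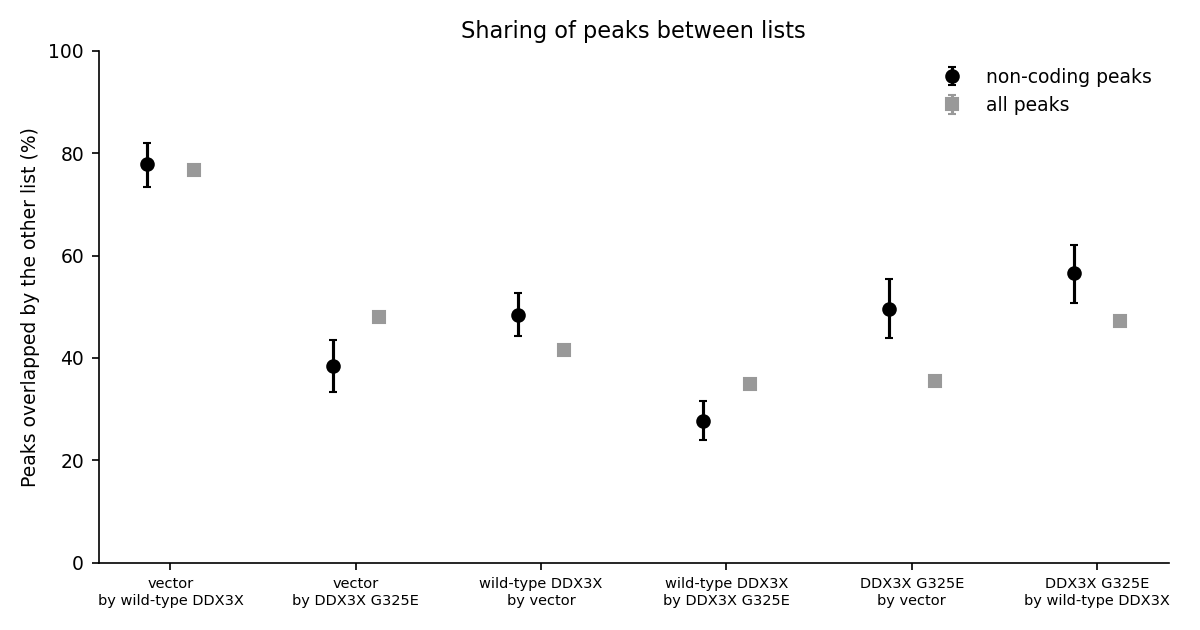
Share of peaks (%, points with 95% Wilson intervals) of the first-named list that overlapped a peak of the second-named list, for non-coding peaks (black circles) and all peaks (grey squares). Non-coding peaks lay below all peaks for overlap by G325E (38.4% and 27.7%) and above for overlap of G325E peaks by the others (49.7% and 56.5%).

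Pseudogenes stood lowest in overlap by G325E. A G325E peak overlapped 32 of 115 vector pseudogene rows (27.8%, 20.5 to 36.6) and 69 of 159 protein-coding rows (43.4%, 35.9 to 51.2), whose intervals overlapped slightly. The interval for vector lncRNA rows (37.0%, 24.5 to 51.4) overlapped that for pseudogenes widely. Among wild-type DDX3X rows the shares were 22.7% (17.4 to 28.9) for pseudogenes and 28.9% (23.5 to 34.9) for protein-coding genes, again with overlapping intervals. In the other direction, a wild-type DDX3X peak overlapped 79 of 131 G325E protein-coding rows (60.3%), 51 of 89 pseudogene rows (57.3%) and 19 of 48 lncRNA rows (39.6%). The skipped peak numbers amounted to 14.8% in the vector list and 13.5% in the wild-type DDX3X list, whereas the G325E list skips none. Of the 127 G325E rows without a wild-type DDX3X peak, 54 (42.5%) lay in a stretch that the wild-type DDX3X list skips. Among all G325E peaks without a wild-type DDX3X peak the share was 40.7%, inside the interval for the rows (34.3 to 51.2). With all rows in such stretches left out, 161 of 234 G325E rows (68.8%, 62.6 to 74.4) overlapped a wild-type DDX3X peak. The share for all G325E peaks was then 59.5%.

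When overlapping non-coding rows were joined across lists they formed 713 loci. Of these 104 were in all 3 lists, 139 in vector and wild-type DDX3X, 31 in wild-type DDX3X and G325E and 10 in vector and G325E, and 247 were in wild-type DDX3X alone, 116 in G325E alone and 66 in vector alone. By gene, 53 of 184 had non-coding rows in all 3 lists, of which 29 were protein-coding genes, 13 pseudogenes, 8 lncRNAs and 3 accessions without a symbol. A further 36 were in vector and wild-type DDX3X only. Loci and genes were not counted in this way over all peaks. These counts alone therefore do not show whether the sharing is particular to non-coding rows. Of 148 transcripts with a wild-type DDX3X non-coding row, 75 (50.7%, 42.7 to 58.6) were named by no G325E row of any kind, against 43.6% of all transcripts in the wild-type DDX3X list. Of 102 vector transcripts 42 (41.2%, 32.1 to 50.9) were so, against 31.1%, and of 96 G325E transcripts 22 (22.9%, 15.6 to 32.3) were absent from the wild-type DDX3X list, against 26.2%. The share for all transcripts lay inside the interval for wild-type DDX3X and G325E and just below it for vector.

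Taken over all classes, G325E rows lay nearer the 5′ end of their transcripts and were richer in GC. The first of several exons held 43.5% of G325E rows (37.9 to 49.2), 21.8% of vector rows (17.8 to 26.4) and 15.7% of wild-type DDX3X rows (12.9 to 19.03). Exon rows of coding transcripts showed the same order, at 29.9%, 11.9% and 11.2%. Among the rows that could be placed on a GENCODE transcript of the named gene, the mean position from the 5′ end was 36.3% ± 27.6 of the length for 246 vector rows, 37.3% ± 27.5 for 404 wild-type DDX3X rows and 24.7% ± 25.9 for 180 G325E rows, each with the SD over peaks. In the protein-coding class the G325E mean was 17.5% ± 19.6 (106 peaks), against 31.7% ± 28.0 in vector (136) and 33.0% ± 27.1 in wild-type DDX3X (218). The first exon held 61.1% of the G325E rows of that class (52.5 to 69.0), 34.6% in vector (27.6 to 42.3) and 24.7% in wild-type DDX3X (19.6 to 30.5). Pseudogene rows differed little in mean position: 42.1% ± 30.6 in G325E (55 peaks), 45.4% ± 25.4 in vector (92) and 45.3% ± 26.3 in wild-type DDX3X (164). Their share in the first of several exons was 28.1% in G325E, 6.96% in vector and 4.93% in wild-type DDX3X.

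The GC content of the peaks was 60.7% ± 16.5 in vector, 59.0% ± 15.6 in wild-type DDX3X and 71.5% ± 13.8 in G325E (SD over 349, 535 and 292 peaks). All peaks gave 63.8%, 63.4% and 74.1%, so the non-coding rows lay slightly below the rest of their list and showed its difference. An ATG stood within the 25 bases around the midpoint in 24.4% of vector rows (20.1 to 29.1), 22.2% of wild-type DDX3X rows (18.9 to 26.0) and 15.1% of G325E rows (11.4 to 19.6), against 20.03%, 20.3% and 13.0% of all peaks. The bases covered an annotated start codon in 31 of 1176 rows (2.64%, 1.86 to 3.72), against 2.65% of all peaks. The median length was 29 bases in vector, 30 in wild-type DDX3X and 33.5 in G325E.

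**Figure D5:**
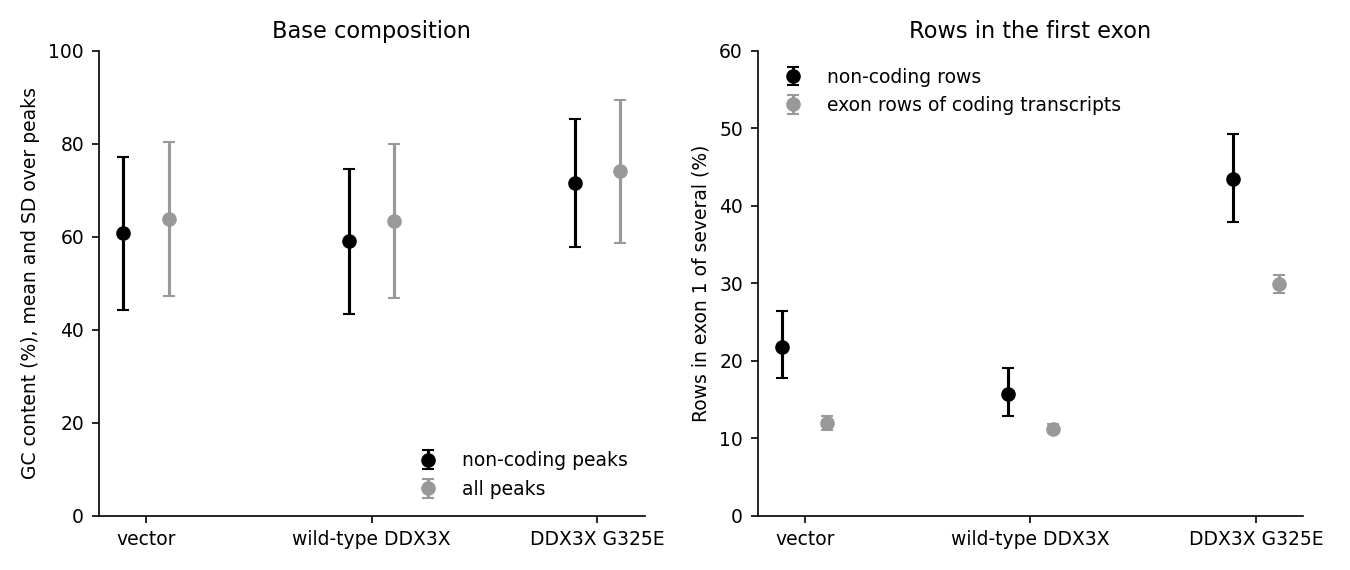
Left, GC content (%, mean and SD over peaks) of non-coding and all peaks in each list. Right, share (%, with 95% Wilson intervals) of non-coding rows and of exon rows of coding transcripts that lay in exon 1 of several. G325E was highest in both, at 71.5% GC and 43.5% of rows in the first exon.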

How the data were processed

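Ribosome profiling was done on 3 HEK293T cultures, 1 library for each construct. Per the study's methods and the submitters' processing notes, the authors trimmed reads with cutadapt, dropped short reads, aligned them with BWA 0.5.5 to NCBI Build 37, RefSeq, exon junctions and AceView, kept the best alignment and removed duplicates. They called peaks by a minimum coverage, merged and reviewed them, and annotated them with HOMER. How reads with equal alignments were placed is not given in the sources used here. The methods name cycloheximide only, the labels also harringtonine.

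The deposited lists give each peak's start, end, annotation and distance to the nearest start site, with no heights; coordinates were read as 1-based. Of 185 accessions, 155 were named from a RefSeq table of GRCh38, used for names only, and 18 from the lists. Midpoints were compared with GENCODE 44 lifted to GRCh37. The 25 bases around each were counted in the genome on both strands and matched to coding transcripts with bwa 0.7.19, allowing 2 mismatches, a procedure tested on simulated data. Scripts ran in Python 3.11.15 with pandas 2.3.3 and numpy 2.4.6, and Wilson 95% intervals came from scipy 1.17.1. Named genes were the 25 with the most rows, the first 3 of each class, and those with at least 3 rows in 1 list and none in another; many of these enter the text in counts only, and 1 is not reported here. CSTF3-DT, SNHG9, RBMX, HMGN2P46 and the readthrough transcripts were named after their values were seen. The members and gene lists were chosen with earlier results of these data known. Alternatives varied the rows counted, the minimum length, the overlap rule and the unit of counting.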

Additional observations from a re-analysis of the deposited data

How the results depend on the processing

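No paired analysis was possible because each construct had 1 library, and no library could be left out. Of 127 values under alternative settings, 78 stayed within the 95% interval of the main value, or within 1.5 times it for a count. Settings with repeated bases or skipped peak numbers were chosen after seeing the data. Values run in the order vector, wild-type DDX3X, G325E. The non-coding share became 8.93%, 7.51% and 7.23% with start-site and end-site rows naming an NR_ transcript, 1.69%, 1.49% and 1.03% without protein-coding genes, and 4.75%, 4.56% and 3.90% counting genes. The order of the lists was kept in each, but wild-type DDX3X and G325E lay closer together with start-site and end-site rows. No intervals were computed for these settings, so whether the G325E interval stays below the others in them was not checked.

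With at least 50% of both peaks shared, overlap by wild-type DDX3X and by G325E was 65.3% and 30.7% for vector rows, by vector and by G325E 42.6% and 22.2% for wild-type DDX3X rows, and by vector and by wild-type DDX3X 36.6% and 41.1% for G325E rows. With midpoints within 100 bases the values for non-coding rows were 88.3%, 47.6%, 59.3%, 35.7%, 58.6% and 69.5%. Those for all peaks were 87.6%, 58.8%, 51.4%, 45.0%, 45.4% and 59.8%. Without skipped stretches, wild-type DDX3X rows overlapped by vector were 53.5% (47.9% of all wild-type DDX3X peaks). G325E rows overlapped by vector were 58.8% (46.0% of all G325E peaks) and by wild-type DDX3X 68.8% (59.5%). With peaks at 1 genomic place, vector rows overlapped by wild-type DDX3X were 73.2%, against 74.7% of all such vector peaks.

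Genes in all 3 lists numbered 139 with start-site and end-site rows and 24 without protein-coding genes. With start-site and end-site rows, protein-coding genes held 21.7%, 21.7% and 18.5%, pseudogenes 14.8%, 18.4% and 14.2%, and lncRNAs 17.3% in wild-type DDX3X and 27.1% in G325E. Counting genes, pseudogenes held 26.5%, 29.1% and 24.2%, and lncRNAs 18.6% in vector and 14.9% in wild-type DDX3X. With peaks at 1 genomic place, protein-coding genes held 63.2%, 64.4% and 60%, and pseudogenes 10.8%, 15.4% and 15.2%. SnoRNA hosts, defined by a snoRNA inside the gene, held 0.935% in wild-type DDX3X and 3.42% in G325E. GC averaged per gene first was 63.4% in vector. The cause of these changes was not tested, beyond what each setting leaves out.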
